A study of Mus musculus with 12 samples.

Results

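Layer 2 and layer 3 callosal projection neurons of the mouse cerebral cortex were compared at postnatal day 7 (P7), using 6 of the series' 12 RNA libraries. All mice were wild type (wt). The P7 layer 2 and P7 layer 3 groups had 3 libraries each, as did P3 layer 2 and P3 layer 3 at postnatal day 3, which serve here as the younger age. The P3 libraries also entered the estimate of spread used for the P7 comparison. In every group the neurons had been marked with the red fluorescent protein mCherry by electroporation in utero at a chosen time, micro-dissected and collected by fluorescence-activated sorting, with 2 to 3 pups pooled per library. The library names carry the number 15 for layer 2 and 14 for layer 3. The sources do not say what this number means, and it cannot be told apart from layer. The sources name no strain, sex, cortical area or reporter promoter, and the deposited table has no mCherry entry. Of 56734 genes in the table, the 16317 with at least 1 TPM (transcripts per 1000000) in at least 3 of the 6 P7 libraries were tested.

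Callosal projection neurons send axons through the corpus callosum to the other hemisphere. Those of layers 2 and 3 are excitatory neurons born late in cortical neurogenesis, with the deeper neurons born before the more superficial ones. Through the first postnatal weeks they form synapses, load glutamate into vesicles and acquire the receptors and adhesion molecules by which superficial and deeper cells differ. Layer 4, which lies just beneath layer 3, receives sensory input from the thalamus and is known for the nuclear receptor RORβ, encoded by Rorb.

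The libraries held markers of the labelled cells. The upper-layer homeobox gene Cux1 was at 116, 105 and 123 TPM in layer 2 and at 109, 138 and 121 TPM in layer 3, and Cux2 lay between 23.0 and 30.1 TPM in the layer 2 libraries and between 24.7 and 30.1 TPM in those of layer 3. Neither gene separated the layers at P7. Fezf2, which marks subcerebral neurons, stayed between 4.65 and 7.80 TPM in layer 2 and between 6.78 and 13.9 TPM in layer 3. The microglial receptor gene Cx3cr1 was present at 30.6 to 69.7 TPM in layer 2 and 21.4 to 76.3 TPM in layer 3, and transcripts of glia were present in all 6 libraries. In pooled sorted cells, fewer cells of a type and less RNA per cell cannot be told apart. Between 15843 and 16948 genes reached 1 TPM in a P7 library. TPM keeps no read depth, so the depth behind each value is unknown. Correlations of log2(TPM + 1) were 0.958 to 0.980 within a layer and 0.949 to 0.973 between the layers. The first 2 principal components of the P7 libraries held 32.2% and 30.7% of the variance. Layer 2 replicate 2 lay at -43.7 and layer 3 replicate 3 at 43.0 on the first, and layer 3 replicate 1 lay at -54.3 on the second. Counts are also given without layer 2 replicate 2 and layer 3 replicate 1, a setting chosen after the data were seen.

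At P7, 93 genes differed between the layers, of which 24 were higher and 69 were lower in layer 2. Fold changes are log2 differences of layer 2 minus layer 3 on the log2(TPM + 1) scale, which understates changes of low genes. They are given with their standard errors, and ± after a TPM value is the SD of 3 libraries. Calls were made in limma's moderated test where the p adjusted by the Benjamini-Hochberg method was under 0.05. The 93 calls were 0.570% of all tested genes, those higher in layer 2 were 0.147% and those lower in layer 2 were 0.423%. At an unadjusted p under 0.05 there were 1643 genes. In 3343 genes, 20.5% of those tested, the 3 layer 2 values did not overlap with the 3 layer 3 values, and all 93 called genes were among these. The median fold change of all tested genes was -0.04. With 3 libraries a layer, exact permutation of the labels reaches no p below 0.1, so no single gene was tested that way. Of the 93 genes, 78 had an absolute fold change of at least 1, 12 stayed under 5 TPM in both layers, and 9 had only predicted or clone names.

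**Figure D1:**
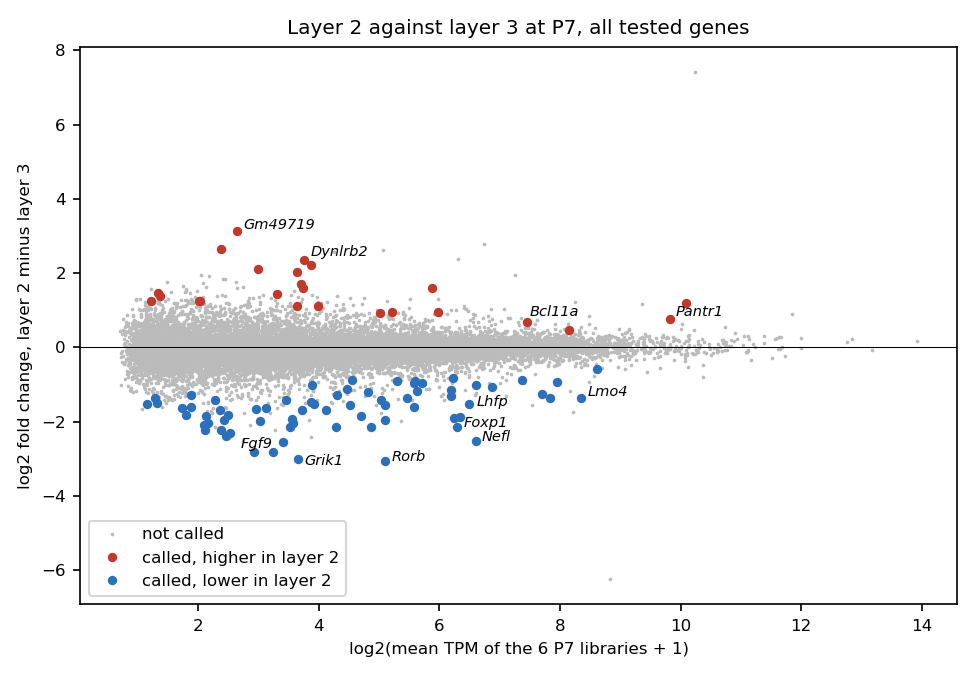
Log2 fold change of layer 2 minus layer 3 at P7 against the mean level of each of the 16317 tested genes. Blue points (69 genes lower in layer 2) outnumber red points (24 higher), and called genes occur from low to high levels.

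The number of calls depended on the libraries in the fit. The number of called genes was 44, 23 and 21 without layer 2 replicate 1, 2 and 3, and 61, 23 and 17 without layer 3 replicate 1, 2 and 3. It was 12 without layer 2 replicate 2 and layer 3 replicate 1 together. The calls of 13 genes held whichever of the 6 P7 libraries was left out. They were Rorb, Foxp1, Nefl, Coch, Lhfp, Fgf9, Grm2, Avpr1a, Cidea, Mc4r, Rpl17-ps5, Gm49719 and Gm17750. No called gene changed sign in any setting tried. Since the layer ranges of all called genes were apart, leaving out libraries could not have changed a sign. Lhfp, Cidea and Gm17750 are named here after their values were seen. With 0.1 added to TPM in place of 1, 48 of the 93 calls were kept. Those that ended included Tacr3, Col8a1, Dapk2, Rgs13, Grik1, Gfra2, Slc22a3, Slc18a2, Hs3st4, Cckbr, Hcrtr1, Grem1 and Ptgdr. A fit of the 6 P7 libraries alone kept 62 of the 93 calls. It ended those of Slc17a7, Slc22a3, Crtac1 and Dynlrb2, among others.

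**Figure D2:**
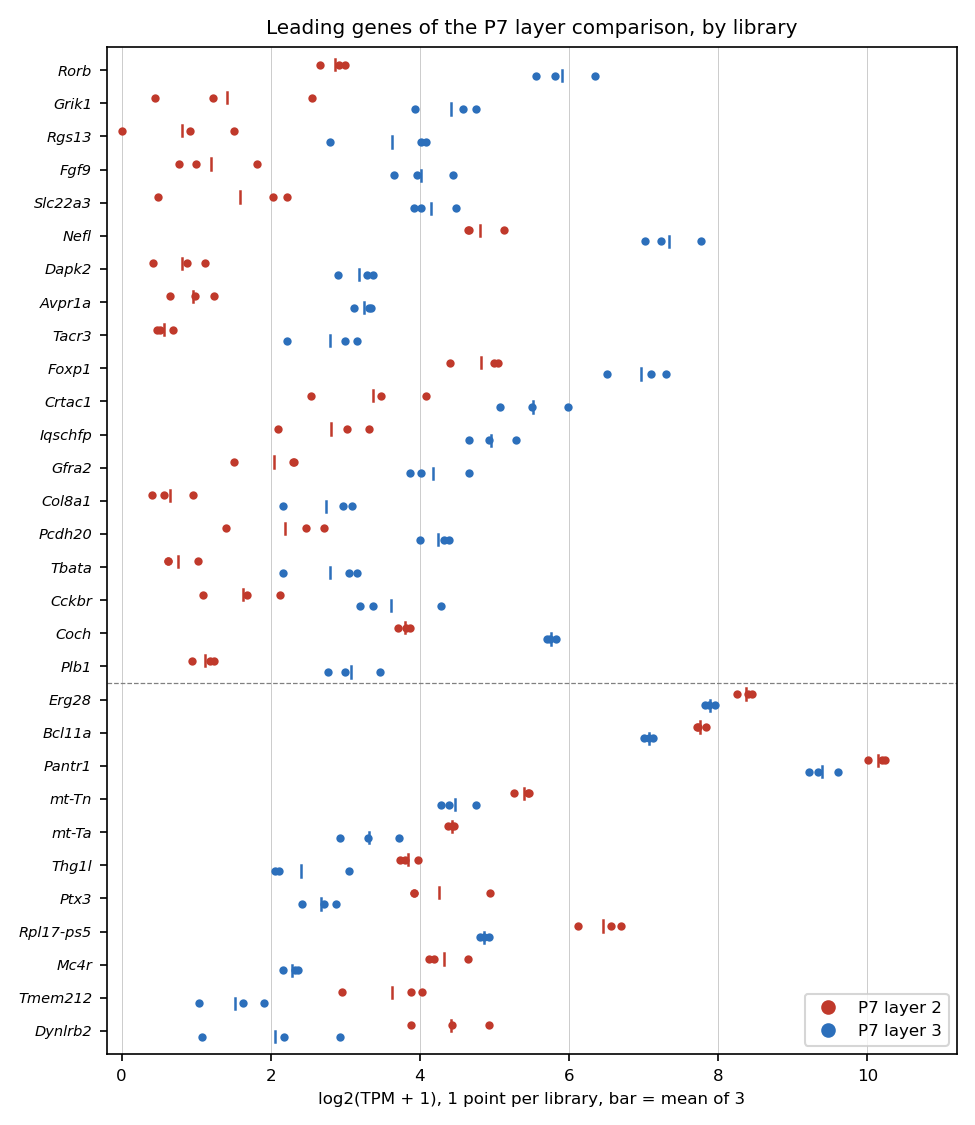
Level of 19 genes among those with the largest negative and 11 among those with the largest positive fold change of called genes at P7, as log2(TPM + 1). Each point is 1 library and each bar the mean of 3. Layer 2 (red) lies left of layer 3 (blue) in the upper 19 genes and right of it in the lower 11. Only genes whose layer ranges did not overlap were eligible to be drawn.

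Several transcriptional regulators were called, most of them lower in layer 2. Rorb, the layer 4 nuclear receptor gene, was at 6.51, 5.31 and 7.01 TPM in the layer 2 libraries, against 46.02, 55.4 and 80.6 TPM in the layer 3 libraries. Each layer 3 library held over 6 times the TPM of the highest layer 2 library, with a fold change of -3.05 ± 0.34 (adjusted p = 0.0013). Foxp1, a forkhead repressor of projection neurons, was at 32.1, 20.2 and 30.8 TPM in layer 2, against 90.4, 136 and 156 TPM in layer 3 (-2.15 ± 0.22, adjusted p = 0.000945). Satb1, a chromatin organiser, was at 40.9, 34.7 and 46.4 TPM in layer 2, against 86.3, 100.3 and 123 TPM in layer 3 (-1.32 ± 0.22, adjusted p = 0.0194). For all 3 genes the layer 2 libraries lay together below every layer 3 library. Lmo4, a LIM-only cofactor of callosal neurons, was at 218, 240.0 and 105 TPM in layer 2, against 462, 405 and 512 TPM in layer 3 (-1.37 ± 0.27, adjusted p = 0.0393), and layer 2 replicate 3 stood below the other 2 of its group. Hlf, a leucine zipper factor of the clock-controlled PAR family, averaged 8.82 ± 1.65 TPM in layer 2, against 18.8 ± 2.23 TPM in layer 3 (-1.02 ± 0.20, adjusted p = 0.0385). The one regulator of these lists called higher in layer 2 was Bcl11a, a zinc-finger factor of developing cortical neurons. It was at 226, 209 and 211 TPM in layer 2, against 133, 127 and 138 TPM in layer 3 (0.69 ± 0.11, adjusted p = 0.0184), a narrow spread in each layer. Rorb and Foxp1 kept their calls whichever P7 library was left out (highest adjusted p = 0.0112). The calls of Satb1 and Bcl11a ended without any P7 library other than layer 3 replicate 1 (adjusted p up to 0.105), and those of Lmo4 and Hlf ended whichever P7 library was left out (adjusted p up to 0.181). The calls of Lmo4 and Hlf also ended without at least 1 of the 6 P3 libraries, which enter through the shared estimate of spread.

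The identity lists each held 1 or 2 called members, beside calls in 0.570% of all tested genes. Of 28 tested upper-layer genes, 0 were called higher and 1 (Lmo4) lower, with a median fold change of -0.08, beside -0.04 for all genes. Of 11 layer 4 genes, 0 were higher and 1 (Rorb) lower, with a median of -0.59. In 6 of the 11 every layer 3 value was above every layer 2 value, beside 12.3% of all tested genes. Of 21 deep-layer genes, 0 were higher and 2 were lower, namely Foxp1 and Hs3st4, a heparan sulfate sulfotransferase gene at 1.40 ± 0.415 TPM in layer 2, against 7.83 ± 2.81 TPM in layer 3 (-1.83 ± 0.31, adjusted p = 0.0208). Their median was -0.54. Tbr1, a T-box factor of deep-layer neurons, was at 37.2, 17.7 and 25.99 TPM in layer 2 and at 40.5, 50.9 and 40.99 TPM in layer 3 and was not called (adjusted p = 0.312). Of 29 nuclear receptors only Rorb was called, and the list median was -0.33. Of 21 callosal neuron genes, 0 were higher and 2 were lower, the neurturin receptor gene Gfra2 and the lipoprotein lipase gene Lpl, with a median of -0.27. Among members not called, the POU factor Pou3f1 averaged 40.6 ± 7.67 TPM in layer 2, against 84.5 ± 6.39 TPM in layer 3 (adjusted p = 0.0509), and Neurod6, a helix-loop-helix factor of projection neurons, 84.8 ± 7.82 and 169.6 ± 37.3 TPM (adjusted p = 0.0569). Of 30 immature neuron genes, 1 (Bcl11a) was higher and 0 were lower, with a median of 0.07. The call of Hs3st4 ended without P7 layer 2 replicates 2 or 3 or layer 3 replicates 1 or 3 (adjusted p up to 0.108).

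Genes of peptide signalling differed in both directions. The peptide list held 42 tested genes, of which 1 was higher and 5 were lower in layer 2, with a median of -0.58. Mc4r, the melanocortin-4 receptor, was the member called higher. It was at 16.4, 23.99 and 17.2 TPM in layer 2, against 4.14, 3.47 and 3.99 TPM in layer 3 (2.04 ± 0.27, adjusted p = 0.0048), so that the lowest layer 2 library held over 3 times the highest layer 3 value. Tacr3, the neurokinin B receptor, was at 0.395, 0.431 and 0.620 TPM in layer 2, against 6.97, 3.65 and 7.95 TPM in layer 3 (-2.23 ± 0.32, adjusted p = 0.00894). Cckbr, the cholecystokinin B receptor, was at 2.20, 1.13 and 3.38 TPM in layer 2, against 9.32, 8.13 and 18.4 TPM in layer 3 (-1.98 ± 0.38, adjusted p = 0.0385). The orexin receptor gene Hcrtr1 was lower as well, at 0.840 ± 0.439 TPM in layer 2, against 4.53 ± 0.884 TPM in layer 3 (-1.60 ± 0.32, adjusted p = 0.0393). Each of these lower receptors was under 5 TPM in all layer 2 libraries. Avpr1a, a vasopressin receptor that the list did not hold, was at 1.35, 0.575 and 0.986 TPM in layer 2, against 9.13, 8.92 and 7.68 TPM in layer 3 (-2.30 ± 0.29, adjusted p = 0.00401). Mc4r and Avpr1a kept their calls whichever P7 library was left out (highest adjusted p = 0.042). The call of Tacr3 ended without P7 layer 3 replicate 3 (adjusted p up to 0.0528), and those of Cckbr and Hcrtr1 ended whichever P7 library was left out (adjusted p up to 0.181). The calls of Cckbr and Hcrtr1 also ended without at least 1 of the 6 P3 libraries. Peptide genes that were not called included Penk, the enkephalin precursor, at 13.5, 9.95 and 7.93 TPM in layer 2 and at 33.6, 24.9 and 21.01 TPM in layer 3 (adjusted p = 0.0964), and Vgf, a granin-like precursor, at 12.2, 7.13 and 10.4 TPM in layer 2 and at 33.4, 15.9 and 27.9 TPM in layer 3 (adjusted p = 0.0697).

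The other peptide genes lower in layer 2 encode granins, which pack dense-core vesicles. Scg2, secretogranin II, was at 34.3, 27.1 and 30.96 TPM in layer 2, against 112, 105 and 140.2 TPM in layer 3 (-1.91 ± 0.34, adjusted p = 0.0248). Chgb, chromogranin B, was at 134, 107 and 124 TPM in layer 2, against 272, 259 and 350.4 TPM in layer 3 (-1.26 ± 0.20, adjusted p = 0.0132). In each gene the 3 layer 2 libraries were alike and below all layer 3 libraries. The promoters of both genes in RefSeq (build GRCm38.p6) hold the letters TGACGTCA, the palindromic cyclic AMP response element, shown in capitals.
Scg2: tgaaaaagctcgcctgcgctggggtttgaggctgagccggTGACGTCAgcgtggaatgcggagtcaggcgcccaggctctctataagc
Chgb: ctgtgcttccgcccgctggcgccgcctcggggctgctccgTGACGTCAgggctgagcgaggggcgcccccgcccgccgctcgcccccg
The Scg2 stretch is chr1:79440047-79440134 on the minus strand and its element ends 60 bases before the start site. The Chgb stretch is chr2:132781530-132781617 on the plus strand and its element ends 64 bases before the start site. Promoter windows from 250 bases before to 50 after the start were found for 52 of the 69 genes lower in layer 2, with 84 windows. Searched on both strands, the element was in 4 of these windows (4.76%), those of Scg2, Chgb, Hlf and Slc18a2. It was in 1.79% of all 32851 windows in the table, or 2.86% of those of tested genes. Among genes higher in layer 2 it was in 1 of 13 windows (7.69%), that of Ccer2. The motif was chosen after the values were seen. The ROR element (TAGGTCA or TGGGTCA, both strands) was in 6 of the 84 windows (7.14%), those of Elavl2, Lhfp and Tspan9. It was in 6.45% of all windows, or 5.1% of those of tested genes, and in 1 of the 13 windows of genes higher in layer 2 (7.69%). No match of 1 element lies inside another, and all are matches of letters in a window, not sites of binding. The call of Chgb ended without P7 layer 2 replicates 2 or 3 or layer 3 replicate 3 (adjusted p up to 0.0805), and the call of Scg2 ended whichever P7 library was left out (adjusted p up to 0.118).

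Receptors and transporters for glutamate and monoamines were lower in layer 2 where they were called. Grik1, a kainate receptor subunit, was at 0.368, 4.88 and 1.34 TPM in layer 2, against 14.2, 22.95 and 25.9 TPM in layer 3 (-3.01 ± 0.51, adjusted p = 0.0208). Grm2, the inhibitory metabotropic receptor mGlu2, was at 8.12, 6.35 and 7.12 TPM in layer 2, against 27.8, 19.1 and 30.2 TPM in layer 3 (-1.68 ± 0.21, adjusted p = 0.00401). These were the 2 of 22 tested glutamate receptor genes that were called, with 0 higher and a list median of -0.26. Hrh3, the histamine H3 receptor, was the only one called of 35 monoamine, acetylcholine and orphan receptors (list median -0.25), at 5.16, 6.31 and 3.31 TPM in layer 2, against 11.03, 13.1 and 20.9 TPM in layer 3 (-1.42 ± 0.29, adjusted p = 0.0443). Slc22a3, an organic cation transporter that carries monoamines, was at 3.09, 0.406 and 3.67 TPM in layer 2, against 15.2, 14.1 and 21.4 TPM in layer 3 (-2.56 ± 0.42, adjusted p = 0.0184). Slc18a2, the vesicular monoamine transporter, which was picked after its values were seen, was at 5.85, 4.68 and 5.23 TPM in layer 2, against 19.2, 17.2 and 21.3 TPM in layer 3 (-1.69 ± 0.31, adjusted p = 0.0277). None of 16 GABA receptor and chloride transporter genes was called (median -0.37, lowest adjusted p = 0.301), and the 3 layer 3 values were above those of layer 2 in 8 of them, beside 12.3% of all tested genes. Grm2 kept its call whichever P7 library was left out (highest adjusted p = 0.0299). The call of Slc22a3 ended without P7 layer 3 replicates 2 or 3 (adjusted p up to 0.095), and the call of Grik1 ended without P7 layer 2 replicates 1 or 3 or layer 3 replicates 2 or 3 (adjusted p up to 0.105). The calls of Hrh3 and Slc18a2 ended whichever P7 library was left out (adjusted p up to 0.215). The call of Hrh3 also ended without at least 1 of the 6 P3 libraries.

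Fgf9, a fibroblast growth factor, was at 2.53, 0.706 and 0.994 TPM in layer 2, against 11.6, 14.5 and 20.7 TPM in layer 3 (-2.82 ± 0.34, adjusted p = 0.00256), and was the only one called of 28 genes of its list. Gfra2, the receptor for neurturin, was at 3.95, 3.94 and 1.84 TPM in layer 2, against 13.5, 15.1 and 24.3 TPM in layer 3 (-2.14 ± 0.36, adjusted p = 0.0208). It was the only one called of 12 neurotrophin and GDNF family genes. The layer 3 libraries of both genes spread upwards to replicate 3, yet the lowest of them stayed well above every layer 2 library. Rgs13, a regulator of G-protein signalling, was at 1.83, 0 and 0.896 TPM in layer 2, against 5.96, 15.1 and 15.9 TPM in layer 3 (-2.82 ± 0.44, adjusted p = 0.0125), and none of the other 19 Rgs genes tested was called. Dapk2, a calmodulin-dependent death-associated kinase, was at 0.831, 0.340 and 1.18 TPM in layer 2, against 6.49, 8.77 and 9.31 TPM in layer 3 (-2.38 ± 0.35, adjusted p = 0.00945). The BMP antagonist Grem1 was low in both layers, at 0.387 ± 0.344 TPM in layer 2, against 2.50 ± 0.387 TPM in layer 3 (-1.36 ± 0.27, adjusted p = 0.0393), and was the only one called of 41 activin, BMP and TGF-beta genes. The activin subunit gene Inhba averaged 7.92 ± 1.21 TPM in layer 2, against 14.1 ± 0.767 TPM in layer 3 and was not called (adjusted p = 0.0594). Kit, the receptor tyrosine kinase for stem cell factor, and Ptgdr, a prostaglandin D2 receptor, picked after their values were seen, were lower in layer 2, with fold changes for Kit of -1.54 ± 0.30 (adjusted p = 0.0393) and for Ptgdr of -1.84 ± 0.35 (adjusted p = 0.0379). Fgf9 kept its call whichever P7 library was left out (highest adjusted p = 0.0217). The call of Dapk2 ended without P7 layer 2 replicate 2 or layer 3 replicates 2 or 3 (adjusted p up to 0.0583), and those of Gfra2 and Rgs13 ended without P7 layer 2 replicates 2 or 3 or layer 3 replicates 2 or 3 (adjusted p up to 0.108). The call of Kit ended without any P7 library other than layer 2 replicate 2 (adjusted p up to 0.19), and those of Grem1 and Ptgdr ended whichever P7 library was left out (adjusted p up to 0.161). The calls of Grem1, Kit and Ptgdr also ended without at least 1 of the 6 P3 libraries.

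Nefl had the largest fold change among called genes that averaged over 100 TPM in a layer. Neurofilaments stiffen and widen axons as neurons mature. This gene encodes the light subunit and was at 34.02, 24.2 and 24.1 TPM in layer 2, against 129, 149 and 218 TPM in layer 3 (-2.53 ± 0.27, adjusted p = 0.00114). Nefm, the medium subunit, was at 13.6, 7.14 and 9.93 TPM in layer 2, against 26.1, 38.2 and 55.2 TPM in layer 3 (-1.84 ± 0.29, adjusted p = 0.0161). In both genes layer 3 replicate 3 was the highest library and no library of the 2 layers overlapped. The 2 genes are neighbours on chromosome 14, with 0 protein-coding genes between them in RefSeq. They were the only ones called of 20 neurofilament and mature cytoskeleton genes, whose median was -0.10. Nefl kept its call whichever P7 library was left out (highest adjusted p = 0.0112). The call of Nefm ended without P7 layer 2 replicates 2 or 3 or layer 3 replicates 2 or 3 (adjusted p up to 0.0836).

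Some synaptic genes were called, beside 0.570% of all tested genes, and those described here were lower in layer 2. Slc17a7, the vesicular glutamate transporter VGLUT1, was at 199.5, 129 and 184 TPM in layer 2, against 342, 279 and 342 TPM in layer 3 (-0.92 ± 0.17, adjusted p = 0.0277). Camk2a, the calcium- and calmodulin-dependent kinase of excitatory synapses, was at 56.6, 49.5 and 53.4 TPM in layer 2, against 91.3, 90.4 and 101 TPM in layer 3 (-0.82 ± 0.15, adjusted p = 0.0319). Syndig1, which encodes a protein that associates with AMPA receptors, was at 81.1, 54.3 and 89.6 TPM in layer 2, against 148, 164 and 156 TPM in layer 3 (-1.08 ± 0.20, adjusted p = 0.0321). For each of the 3 genes layer 2 replicate 2 was the lowest library and the layers did not overlap. The 32 presynaptic genes, Slc17a7 among them, had a median of -0.25, and in 17 of them every layer 3 value was above every layer 2 value, beside 12.3% of all tested genes. Of 31 postsynaptic genes, 0 were higher and 1 was lower, with a median of -0.17. The call of Slc17a7 ended without any P7 library other than layer 2 replicate 1 (adjusted p up to 0.147), and those of Camk2a and Syndig1 ended whichever P7 library was left out (adjusted p up to 0.181). The call of Syndig1 also ended without at least 1 of the 6 P3 libraries.

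Several other neuronal lists had negative medians and no called member. These were synaptic adhesion genes (49 tested, median -0.21), potassium and HCN channels (56 tested, -0.20), sodium and calcium channels (23 tested, -0.21) and calcium-binding proteins (24 tested, -0.30). Their members with the smallest p included Nrxn3, a neurexin, at 11.1, 8.31 and 6.94 TPM in layer 2 and at 25.4, 23.6 and 30.7 TPM in layer 3 (adjusted p = 0.0527). The calcium sensor gene Hpca was at 495, 384 and 420.3 TPM in layer 2 and at 588, 648 and 717 TPM in layer 3 (adjusted p = 0.0822). In both genes the ranges of the layers were apart, although neither passed the test. The circadian clock list (20 tested, median -0.22) held 0 higher and 2 lower genes, Rorb and Hlf, and none of 21 retinoid and thyroid hormone genes (median -0.09) or 25 immediate early genes was called (lowest adjusted p = 0.131 and 0.208). The medians of the homeobox, immediate early, semaphorin, fibroblast growth factor, activin, Rgs, neurotrophin, matrix and primary cilium lists changed sign in at least 1 alternative setting, among them median-ratio scaling for the homeobox and primary cilium lists, so no direction is given for them.

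**Figure D3:**
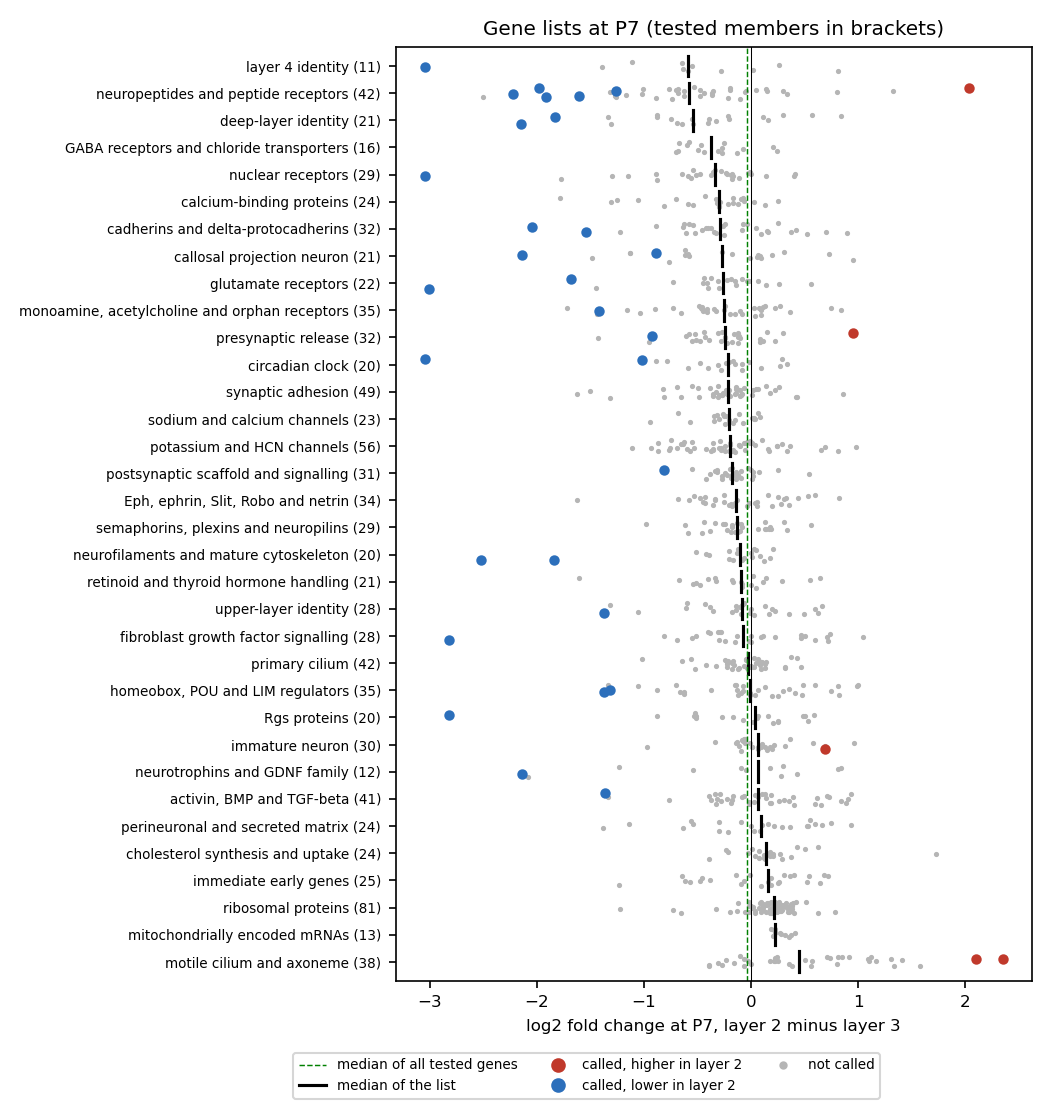
Log2 fold changes of layer 2 minus layer 3 at P7 for the tested members of each gene list. Grey points are members not called, coloured points are called members, black bars are list medians and the dashed line is the median of all tested genes (-0.04). The peptide list holds the most called members, 5 lower and 1 higher in layer 2.

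Called adhesion genes were lower in layer 2. Of 32 cadherins and delta-protocadherins, 0 were higher and 2 were lower, with a median of -0.29. Cdh12 was at 9.35, 9.82 and 13.2 TPM in layer 2, against 32.96, 29.1 and 37.7 TPM in layer 3 (-1.55 ± 0.22, adjusted p = 0.00894). Pcdh20 was at 5.53, 1.64 and 4.56 TPM in layer 2, against 15.1, 19.1 and 19.97 TPM in layer 3 (-2.05 ± 0.34, adjusted p = 0.0194). Both encode membrane proteins by which neurons adhere to each other. Coch, which encodes cochlin, a secreted protein of the inner ear matrix, was at 13.6, 12 and 13.1 TPM in layer 2, against 51.3, 52.8 and 55.8 TPM in layer 3 (-1.97 ± 0.22, adjusted p = 0.0013), a narrow range in each layer. Col8a1, a short-chain collagen, was at 0.948, 0.489 and 0.332 TPM in layer 2, against 3.47, 7.52 and 6.82 TPM in layer 3 (-2.09 ± 0.30, adjusted p = 0.00894). Crtac1, a secreted matrix protein gene, was at 15.9, 10.2 and 4.84 TPM in layer 2, against 32.6, 44.3 and 62.1 TPM in layer 3 (-2.15 ± 0.37, adjusted p = 0.0227). Their layer 2 ranges ended below the layer 3 ranges. None of 24 perineuronal and secreted matrix genes, 29 semaphorin, plexin and neuropilin genes or 34 Eph, ephrin, Slit, Robo and netrin genes was called (lowest adjusted p = 0.221, 0.0966 and 0.0822). Coch kept its call whichever P7 library was left out (highest adjusted p = 0.0112). The call of Cdh12 ended without P7 layer 3 replicate 3 (adjusted p up to 0.0583), and the call of Col8a1 ended without P7 layer 2 replicate 3 or layer 3 replicates 2 or 3 (adjusted p up to 0.0578). The calls of Pcdh20 and Crtac1 ended without P7 layer 2 replicates 2 or 3 or layer 3 replicates 2 or 3 (adjusted p up to 0.118).

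The smallest p at P7 belonged to Lhfp, a tetraspan membrane protein gene named here after its values were seen. It was at 45.3, 48.7 and 42.6 TPM in layer 2, against 121, 132 and 145 TPM in layer 3 (-1.52 ± 0.14, adjusted p = 0.000824). Other called genes without a common list follow. Lpl, the lipoprotein lipase, was at 124, 97.7 and 123 TPM in layer 2, against 179, 234 and 232 TPM in layer 3 (-0.89 ± 0.16, adjusted p = 0.0297). Plb1, a phospholipase, averaged 1.19 ± 0.232 TPM in layer 2, against 7.64 ± 2.20 TPM in layer 3 (-1.96 ± 0.29, adjusted p = 0.00945). Cidea, a lipid droplet protein gene, averaged 1.41 ± 0.0812 TPM in layer 2, against 6.89 ± 1.89 TPM in layer 3 (-1.68 ± 0.25, adjusted p = 0.00945). Tbata and Iqschfp, also among the 20 leading genes, averaged 0.707 ± 0.289 and 6.44 ± 2.90 TPM in layer 2, against 6.22 ± 2.40 and 30.6 ± 6.85 TPM in layer 3 (adjusted p = 0.00894 and 0.0385). Lhfp and Cidea kept their calls whichever P7 library was left out (highest adjusted p = 0.0486). The call of Tbata ended without P7 layer 3 replicate 3 (adjusted p up to 0.0578), and the call of Plb1 ended without P7 layer 2 replicate 3 or layer 3 replicate 3 (adjusted p up to 0.0583). The call of Lpl ended without any P7 library other than layer 3 replicate 1 (adjusted p up to 0.149), and the call of Iqschfp ended whichever P7 library was left out (adjusted p up to 0.149). The call of Iqschfp also ended without at least 1 of the 6 P3 libraries.

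Genes higher in layer 2 were fewer, and besides Bcl11a and Mc4r they included the following. Pantr1, a long noncoding RNA encoded beside Pou3f3, was at 1204, 1028 and 1168 TPM in layer 2, against 594, 781 and 648 TPM in layer 3 (0.75 ± 0.15, adjusted p = 0.0385). Ptx3, a secreted pentraxin, was at 14.1, 29.6 and 14.1 TPM in layer 2, against 6.34, 5.55 and 4.36 TPM in layer 3 (1.59 ± 0.30, adjusted p = 0.0375). In both genes the layers were apart, and layer 2 replicate 2 stood above the other 2 of its group in Ptx3. Thg1l, a tRNA guanylyltransferase gene, averaged 13.3 ± 1.29 TPM in layer 2, against 4.59 ± 2.33 TPM in layer 3 (1.43 ± 0.26, adjusted p = 0.0271). The mitochondrial tRNA genes mt-Ta and mt-Tn were higher in layer 2 as well (1.11 ± 0.21 and 0.92 ± 0.18, adjusted p = 0.0321 and 0.0385). Erg28, a scaffold of sterol synthesis, averaged 330.1 ± 22.6 TPM in layer 2, against 236 ± 11.1 TPM in layer 3 (0.48 ± 0.09, adjusted p = 0.0399). The ribosomal protein pseudogene Rpl17-ps5 was higher (1.59 ± 0.21, adjusted p = 0.0055), but shares sequence with its parent gene, which leaves its level uncertain. Rpl17-ps5 kept its call whichever P7 library was left out (highest adjusted p = 0.0436). The calls of Thg1l and mt-Ta ended without any P7 library other than layer 3 replicate 3 (adjusted p up to 0.129), and those of Pantr1, Ptx3, mt-Tn and Erg28 ended whichever P7 library was left out (adjusted p up to 0.194). The calls of Pantr1, Ptx3, mt-Ta, mt-Tn and Erg28 also ended without at least 1 of the 6 P3 libraries. Those of Pantr1, mt-Ta, mt-Tn and Erg28 ended under median-ratio scaling as well, and with a replicate block.

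Lists of housekeeping genes had positive medians with no called member. Over all tested genes 44.1% had fold changes above 0, or 51.8% with median-ratio scaling. All 13 mitochondrially encoded mRNAs had fold changes above 0 (median 0.23, lowest adjusted p = 0.372). Of 81 ribosomal protein genes, 69 were above 0 (median 0.21, lowest adjusted p = 0.116), and in 50 of them every layer 2 value was above every layer 3 value, beside 8.22% of all tested genes. Of 24 cholesterol genes, 20 were above 0 (median 0.14), with Fdps, an enzyme of isoprenoid synthesis, at 676, 711 and 610.1 TPM in layer 2 and at 446, 476 and 485 TPM in layer 3 (adjusted p = 0.0594). The fold changes of these lists were small, and TPM values are shares of 1 total.

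Genes of motile cilia were higher in layer 2 where they were called. Dynlrb2, a dynein light chain, was at 20.7, 29.4 and 13.8 TPM in layer 2, against 1.10, 6.64 and 3.52 TPM in layer 3 (2.36 ± 0.43, adjusted p = 0.0286). Tmem212 was at 15.3, 13.8 and 6.73 TPM in layer 2, against 1.05, 2.75 and 2.08 TPM in layer 3 (2.10 ± 0.39, adjusted p = 0.0321). Of 38 tested motile cilium genes, 2 were higher and 0 were lower, with a median of 0.45, and 14 had layer 2 values all above those of layer 3, beside 8.22% of all tested genes. Foxj1, the master factor of motile cilia, was at 9.89, 12.8 and 6.86 TPM in layer 2 and at 3.59, 3.64 and 2.42 TPM in layer 3 and was not called (adjusted p = 0.18). It is named after its values were seen. Cfap126 and Tekt1, axonemal proteins, were at 4.27 ± 1.79 and 6.65 ± 1.69 TPM in layer 2, against 0.687 ± 0.132 and 1.92 ± 0.879 TPM in layer 3 and were not called (adjusted p = 0.0537 and 0.0588). In RefSeq, the Dynlrb2 promoter (chr8:116504924-116505014, plus strand, GRCm38.p6) holds the X-box, the element read by RFX factors in cilium genes, shown in capitals and ending 38 bases before the start site.
Dynlrb2: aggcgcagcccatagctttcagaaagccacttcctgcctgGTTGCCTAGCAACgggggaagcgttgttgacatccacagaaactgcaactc
Searched on both strands as GTTNCC, any 2 bases and GNAAC, the X-box was in 4 of 56 promoter windows of the cilium list (7.14%). These were windows of Dynlrb2, Dnah9 and Tekt2. The X-box was in 0.673% of all windows, 0.504% of those of tested genes and 0 of the 84 windows of genes lower in layer 2. Radial glia and cell cycle markers also had positive medians at P7 (0.70 and 0.57), and their part in the cilium values was not tested. The call of Dynlrb2 ended without any P7 library other than layer 3 replicate 2 (adjusted p up to 0.135), and the call of Tmem212 ended without any P7 library other than layer 2 replicate 3 (adjusted p up to 0.136). The call of Tmem212 also ended without at least 1 of the 6 P3 libraries.

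Compared with P3, the layer difference at P7 involved fewer called genes. In the same fit 1471 genes (9.02%) were called between the layers at P3. Of the 93 genes called at P7, 45 were also called at P3, which is 48.4% of the P7 calls and 3.06% of the P3 calls, and 41 of the 45 had the same direction at both ages. Of the 69 genes lower in layer 2 at P7, 30 were lower and 1 was higher at P3 and 38 were not called there. Of the 24 genes higher at P7, 11 were higher and 3 were lower at P3 and 10 were not called there. Rorb was alike at both ages, with fold changes of -3.05 ± 0.34 at P7 and -2.66 ± 0.34 at P3. Grm2 (-1.68 ± 0.21 at P7 and -1.61 ± 0.21 at P3), Avpr1a (-2.30 ± 0.29 and -2.08 ± 0.29) and Lhfp (-1.52 ± 0.14 and -1.65 ± 0.14) were alike too. Not being called at P3 does not show a difference between the ages. That difference was tested for every gene as the layer difference at P7 minus that at P3. It was called for 28 genes (0.172%), 20 positive and 8 negative. Of these, 9 were also called at P7 and the other 19 were called at P3. The count was 5 without P7 layer 2 replicate 2 and P7 layer 3 replicate 1, and 10 to 108 with a library left out, the lowest without P7 layer 3 replicate 1 and the highest without P3 layer 3 replicate 2. This call held whichever of the 12 libraries was left out for 6 genes, Nefl, Vsnl1, Bcl6, Nr1d1, Gm49719 and A830036E02Rik.

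**Figure D4:**
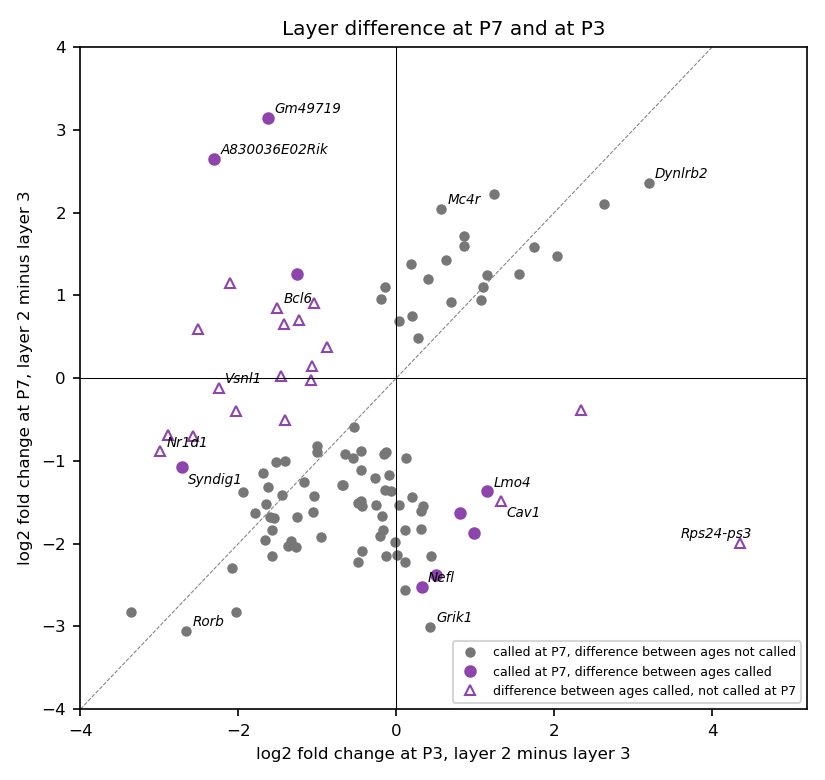
Log2 fold change of layer 2 minus layer 3 at P7 (vertical) against that at P3 (horizontal) for the 93 genes called at P7 and the 19 others whose layer difference changed with age. The dashed line marks equal differences. Nefl and Grik1 lie far below 0 at P7 and near 0 at P3, and Rorb lies near the line.

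Nefl was apart between the layers at P7 and overlapped at P3. At P7 it was at 34.02, 24.2 and 24.1 TPM in layer 2, against 129, 149 and 218 TPM in layer 3, and at P3 at 21.9, 18.1 and 15.1 TPM in layer 2, against 10.5, 22.5 and 12.4 TPM in layer 3 (difference of differences -2.85 ± 0.38, adjusted p = 0.0107). The layer 3 libraries at P7 were the only ones above 100 TPM. Vsnl1, a neuronal calcium sensor, was apart at P3. At P7 it was at 731, 615 and 706 TPM in layer 2 and at 626, 769.8 and 848 TPM in layer 3, which overlapped, and at P3 at 92.3, 62.04 and 88.5 TPM in layer 2, against 372, 376 and 401 TPM in layer 3 (2.13 ± 0.22, adjusted p = 0.0013). Bcl6, a repressor of projection neurons, was above layer 3 at P7 (24.8, 22.4 and 23.8 TPM in layer 2, against 16.7, 11.6 and 10.7 TPM in layer 3) but was not called there. At P3 it was called lower in layer 2, at 13.4, 12.5 and 8.01 TPM, against 33.8, 39.6 and 27.8 TPM in layer 3 (2.35 ± 0.32, adjusted p = 0.0107). The layers thus stood in opposite order at the 2 ages. Nr1d1, the clock repressor REV-ERBα, averaged 42.1 ± 3.00 TPM in layer 2, against 79.02 ± 9.34 TPM in layer 3 at P7, and 9.73 ± 3.36 TPM in layer 2, against 82.04 ± 8.75 TPM in layer 3 at P3 (2.11 ± 0.28, adjusted p = 0.0107). Its layer difference was called at P3 and not at P7.

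Lmo4 was lower in layer 2 at P7 and higher in layer 2 at P3. At P3 it was at 259.7, 234 and 372 TPM in layer 2, against 101, 132 and 153 TPM in layer 3, and its difference between the ages was -2.52 ± 0.38 (adjusted p = 0.0207). That call ended when any of P7 layer 3 replicates 1 and 3, P3 layer 2 replicate 3 and P3 layer 3 replicate 1 was left out (adjusted p up to 0.0721). Syndig1 kept its direction with a smaller difference at P7, at 18.96, 13.3 and 23.98 TPM in layer 2 and at 126, 129 and 121 TPM in layer 3 at P3 (1.64 ± 0.29, adjusted p = 0.0396). Dapk2 averaged 1.32 ± 1.07 TPM in layer 2, against 0.535 ± 0.293 TPM in layer 3 at P3, so that only the P7 layer 3 libraries were above 3 TPM (-2.88 ± 0.50, adjusted p = 0.0396). Cav1, the caveolin of membrane pits, was at 6.77, 11.1 and 8.18 TPM in layer 2 and at 31.4, 20.03 and 26.7 TPM in layer 3 at P7, and at 15.6, 10.6 and 17.2 TPM in layer 2 and at 2.89, 9.67 and 4.41 TPM in layer 3 at P3 (-2.80 ± 0.48, adjusted p = 0.0396). Its order was therefore turned between the ages, though the layer difference was called at P3 and not at P7. The keratin gene Krt12 (3.10 ± 0.56, adjusted p = 0.0463) and the growth factor gene Bmp2 (2.07 ± 0.33, adjusted p = 0.0273) had positive differences. The calls of Syndig1, Dapk2, Cav1, Krt12 and Bmp2 ended without 7 to 10 of the 12 libraries (adjusted p up to 0.158). Some genes with a large P7 difference did not pass this test, such as Grik1 (0.43 ± 0.51 at P3, adjusted p of the difference = 0.0825) and Tacr3 (0.11 ± 0.32 at P3, 0.0623).

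The other genes called at P7 whose layer difference changed with age are less well known. Gm49719, a predicted gene, was at 9.62, 7.46 and 13.8 TPM in layer 2, against 0.319, 0 and 0.471 TPM in layer 3 at P7 (3.14 ± 0.31, adjusted p = 0.000945). At P3 it was at 0.594, 0.360 and 0.280 TPM in layer 2, against 2.09, 3.14 and 5.30 TPM in layer 3 (difference between the ages 4.76 ± 0.44, adjusted p = 0.000937). A830036E02Rik was likewise higher in layer 2 at P7 and lower there at P3, averaging 7.98 ± 3.45 TPM in layer 2, against 0.388 ± 0.339 TPM in layer 3 at P7, and 0.407 ± 0.357 TPM in layer 2, against 6.98 ± 5.81 TPM in layer 3 at P3 (4.95 ± 0.64, adjusted p = 0.0107). Both genes thus had opposite layer orders at the 2 ages. Ccer2 averaged 4.70 ± 0.710 TPM in layer 2, against 1.41 ± 0.473 TPM in layer 3 at P7, and 0.271 ± 0.101 TPM in layer 2, against 2.07 ± 0.501 TPM in layer 3 at P3 (2.51 ± 0.36, adjusted p = 0.0131). Pld5, of the phospholipase D family, averaged 0.653 ± 0.583 TPM in layer 2, against 3.96 ± 0.550 TPM in layer 3 at P7, and 1.28 ± 0.400 TPM in layer 2, against 0.316 ± 0.325 TPM in layer 3 at P3 (-2.44 ± 0.43, adjusted p = 0.0396). The pseudogene Rps2-ps13 shares sequence with Rps2, which leaves its level and its difference (-2.85 ± 0.48, adjusted p = 0.0396) uncertain. The call of the difference ended for Ccer2 without P3 layer 2 replicate 3 (adjusted p = 0.0512), and for Pld5 and Rps2-ps13 without 9 or 10 of the 12 libraries. Gm49719 kept its call whichever P7 library was left out (highest adjusted p = 0.00793). The calls of A830036E02Rik and Pld5 ended without any P7 library other than layer 2 replicate 1 (adjusted p up to 0.135), and those of Ccer2 and Rps2-ps13 ended whichever P7 library was left out (adjusted p up to 0.207). The calls of Ccer2 and Pld5 also ended without at least 1 of the 6 P3 libraries.

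The P3 libraries used in these differences were unlike those of P7 in some respects. The Y-linked gene Eif2s3y was at 28.4, 15.2 and 73.5 TPM in layer 2 and at 16.2, 10.4 and 33.9 TPM in layer 3 at P7, with overlapping ranges. At P3 it was listed at 0, 0 and 8.35 TPM in layer 2 and was at 32.7, 23.7 and 98.9 TPM in layer 3. The motile cilium list had a median of 0.45 at P7 and 1.80 at P3. Astrocyte markers had medians of 0.59 at P7 and 1.69 at P3. What these contribute to the differences between the ages was not tested.

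Markers of other cell types were not called at P7. Of 16 astrocyte markers, 14 had fold changes above 0 (median 0.59), beside 44.1% of all tested genes. The TPM of these markers summed to 1288 to 3765 in the layer 2 libraries and 1033 to 2867 in the layer 3 libraries. Among radial glia and progenitor markers all 13 were above 0 (median 0.70), with sums of 1134 to 3009 TPM in layer 2 and 474 to 1600.0 TPM in layer 3. Cell cycle genes summed to 341 to 559 TPM in layer 2 and 229 to 350.2 TPM in layer 3, with 18 of 20 above 0. Layer 2 replicate 2 had the highest sums of its group in each of these lists, and layer 3 replicate 3 the lowest of all 6 libraries. Oligodendrocyte markers summed to 316 to 880 TPM in layer 2 and 150 to 1508 TPM in layer 3, and interneuron markers to 124 to 175 TPM in layer 2 and 108 to 399 TPM in layer 3. Layer 3 replicate 1 held the highest sum in both. Microglia markers summed to 887 to 2358 TPM in layer 2 and 810.4 to 2523 TPM in layer 3. Vessel and meningeal markers summed to 31.8 to 37.1 TPM in layer 2 and 39.4 to 60.7 TPM in layer 3. Those of Cajal-Retzius cells summed to 11.9 to 20.8 TPM in layer 2 and 31.2 to 106 TPM in layer 3. In both lists every layer 3 sum was above every layer 2 sum. The choroid plexus list summed to 193 to 239 TPM in layer 2 and 129.7 to 156 TPM in layer 3, with layer 2 higher and no overlap. Most of that sum was Enpp2, at 179, 222 and 181 TPM in layer 2 and at 145, 111 and 107 TPM in layer 3 (not called, adjusted p = 0.208). In this list 2 members were listed at 0 in all 6 libraries, and the choroid plexus gene Ttr was at most 2.20 TPM in layer 2 and 0.642 TPM in layer 3. The lowest adjusted p over these lists was 0.0752, for the chromatin gene Hmgb2 of the cell cycle list. Layer 2 replicate 2 and layer 3 replicate 1, which were highest in glial sums, are the libraries left out in the count of 12 given above, in which Rorb, Foxp1, Nefl, Coch, Lhfp, Fgf9, Grik1, Rgs13, Col8a1 and Gm49719 were among those called (adjusted p up to 0.0419). Among other named genes, Mc4r (0.0762), Grm2 (0.0885) and Avpr1a (0.0755) were not called in that setting.

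**Figure D5:**
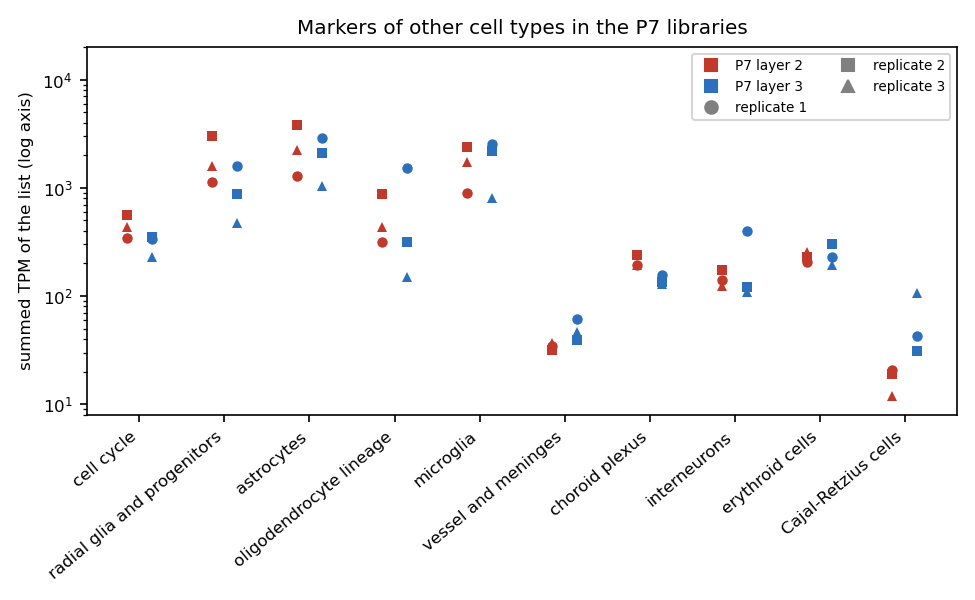
Summed TPM of marker lists of other cell types in the 6 P7 libraries, on a log axis, with 1 symbol shape per replicate. The layers overlap in the astrocyte, oligodendrocyte and microglia lists. Layer 3 replicate 1 stands highest in the oligodendrocyte and interneuron lists.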

How the data were processed

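RNA was extracted from sorted neurons with the RNeasy mini kit and libraries were made with the SMART-Seq mRNA LP kit, per the labels' protocols. The submitters' processing notes name HISAT2, StringTie, featureCounts and the genome build GRCm39, with no versions. The authors deposited 1 table of TPM values (transcripts per 1000000) for 12 libraries, in which each library sums to 1000000. TPM removes read depth and gene length, so no counting error can be given and only the spread between libraries measures precision. The standard errors rest on a spread shared by the 4 groups of 12 libraries. No source used here gives the strand setting or the handling of reads shared by similar genes.

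From these values, log2(TPM + 1) of genes with at least 1 TPM in at least 3 of the 6 P7 libraries was fitted with limma 3.58.1 (R 4.3.3; trended variance). The fit had 4 group means over 12 libraries and 8 residual degrees of freedom. Contrasts were layer 2 minus layer 3 at P7, the same at P3, and their difference, with Benjamini-Hochberg adjustment over all 16317 genes and calls at 0.05. The 12 libraries are separate samples per the labels. In 20 simulated data sets of 16317 genes with 200 changed genes, the P7 comparison recovered 54.5% of genes changed by 1 and 91.4% of those changed by 2 on the log2 scale, and 5.26% of calls were false. The simulated noise was normal and independent between genes and libraries. Only genes with a mean log2(TPM + 1) above 2 were changed. These rates therefore need not hold for the real libraries or for low genes.

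The members and gene lists were chosen with earlier results of these data known. Named genes were up to 20 called genes per direction with the largest fold changes, ranges apart, at least 5 TPM in the higher layer and an established symbol. Added to these were up to 5 called and 3 uncalled genes per list by smallest p, identity checks, and genes stated as picked after their values were seen. For the difference between the ages, up to 5 genes per direction by size, level and symbol were named. Promoter sequences and gene neighbours come from RefSeq (GRCm38.p6), and 89 of the 93 called genes were found there by symbol. No gene coordinates of GRCm39 are used here. Alternatives were the pseudocount, the filter, scaling, sample weights (by limma's gene-by-gene method), a replicate block, the P7 libraries alone and leaving out libraries. The results of a few genes are not reported here.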

Additional observations from a re-analysis of the deposited data

Results flagged for a closer look

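For the genes below, the layer difference (layer 2 minus layer 3, log2) was not the same at P7 as at P3, by limma's test of the difference between the 2 differences. The values are the P7 difference minus the P3 difference. Groups of 3 libraries are too small to test for a library that stands apart.

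A more negative difference at P7 was found for the pseudogene Rps24-ps3 (-6.35), which shares sequence with Rps24 and is uncertain, for Rps2-ps13 (-2.85), Nefl (-2.85), Dapk2 (-2.88), Cav1 (-2.80), Lmo4 (-2.52) and Pld5 (-2.44). Nefl was the member of this group that kept its call whichever of the 12 libraries was left out.

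A more positive difference at P7 was found for the clock output gene Dbp (1.64), Syndig1 (1.64), Bmp2 (2.07), Nr1d1 (2.11), Vsnl1 (2.13), Bcl6 (2.35), Ccer2 (2.51), Krt12 (3.10), Gm49719 (4.76) and A830036E02Rik (4.95). Of these, Nr1d1, Vsnl1, Bcl6, Gm49719 and A830036E02Rik were called with each library left out in turn. Without P7 layer 2 replicate 2 and P7 layer 3 replicate 1, a setting chosen after the data were seen, 5 genes were called, among them Rps24-ps3, Vsnl1, Bcl6 and Gm49719.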

How the results depend on the processing

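In place of the 93 calls at P7, 49 were made with a pseudocount of 0.1, 149 with a pseudocount of 5, 546 with sample weights (40.1% of them higher in layer 2, against 25.8%), 4 in the 6 P7 libraries alone with a replicate block, and 12 without P7 layer 2 replicate 2 and P7 layer 3 replicate 1 (chosen after the data were seen). Leaving out 1 of the 12 libraries gave 17 to 132 calls at P7, the lowest without P7 layer 3 replicate 3, where 47.1% were higher in layer 2, and the highest without P3 layer 3 replicate 2; without P7 layer 2 replicate 1, 13.6% were higher. For the difference between the ages, 28 genes were called in the main analysis, 14 with a pseudocount of 0.1, 16 without a filter, 45 with quantile normalization, 551 with sample weights, 5 without P7 layer 2 replicate 2 and P7 layer 3 replicate 1, and 10 to 108 with 1 library left out. Other settings kept both counts within 1.5 times. The cause of these shifts was not tested, apart from the fewer samples where libraries were left out. Same-numbered libraries did not deviate together at P7 (correlations -0.212, 0.0524 and 0.0121 over the pairs of layer 2 and layer 3). With 3 libraries a group, this cannot show whether the numbers pair them. With a replicate block over all 12 libraries 69 genes were called at P7, 61 of them among the 93, and 30 for the difference between the ages. The calls of Lhfp, Coch and Rorb held in every setting run. Median-ratio scaling moved the median of all genes to 0.01 and quantile normalization to 0.002, against -0.04.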

Other observations

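The 2 fold changes farthest from 0 at P7 belonged to genes listed at 0 in some libraries and high in others, and neither was called. Gm37376 was at 2214, 985 and 2792 TPM in layer 2 and was listed at 0, 0 and 1241 TPM in layer 3 (fitted difference 7.41 on the log2 scale, adjusted p = 0.193 in limma). Gm15564 was listed at 0, 0 and 703 TPM in layer 2 and was at 714, 642 and 652 TPM in layer 3 (-6.23, adjusted p = 0.532). These genes were chosen after their values were seen.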
